A study of Homo sapiens with 6 samples.

Results

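The Iroquois (IRX) genes were examined in MDA-MB-231 cells together with FTO, the gene that neighbours IRX3 on chromosome 16. The genes came in through IRX5, whose level had the 32nd largest change of 54613 probe sets between WASF3 knockdown and control clones. The other members were taken by family name and by their place beside IRX5. Members were every probe set whose platform symbol was IRX1, IRX2, IRX3, IRX4, IRX5, IRX6 or FTO. This gave 7 probe sets for 6 of the 7 genes; IRX6 was not named in the platform annotation used here and was not analysed. MDA-MB-231 is an established human breast cancer line of the triple-negative type. In the knockdown group, cells carried a pSM2 retroviral vector with a short hairpin RNA against WASF3, an activator of branched actin assembly. In the control group, cells carried the empty pSM2 vector or the same vector with a hairpin against GFP, a protein these cells lack. All cells of both groups were at passage 4 and had been selected with puromycin. Each array held RNA of 1 single clone, with 3 knockdown and 3 control clones, and the labels do not tell which hairpin or control vector a given clone carried. A group of 3 single clones does not separate the effect of a hairpin from differences that arose between clones.

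Iroquois genes encode homeodomain transcription factors of the TALE class, whose homeodomain is lengthened by a short loop. In vertebrates they lie in clusters, IRX3, IRX5 and IRX6 in one and IRX1, IRX2 and IRX4 in the other, and they pattern the neural tube, heart, limbs and other organs. FTO encodes an enzyme that removes methyl groups from adenosine in RNA. Its introns hold enhancers that contact the IRX3 promoter, and common variants in these introns are associated with body weight through IRX3 and IRX5 in fat cell precursors and brain.

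WASF3 was read by 1 probe set, with log2 RMA signals of 5.40, 5.80 and 4.52 in knockdown clones 1, 2 and 3, against 6.77, 6.42 and 6.59 in the control clones. Every knockdown clone lay below every control clone, with 39.2% of the control signal left on average (limma adjusted p = 0.102). The 6 markers fixed for this line (VIM, CD44, KRT18, ANXA1, CAV1 and AXL) had means over the arrays of 11.7 to 14.2, while 7 leukocyte markers lay between 3.23 and 5.74 and 5 fat cell markers between 3.01 and 6.70. Of the luminal markers, PGR and FOXA1 were at the low end of the table, whereas KRT19 and GATA3 were not. ESR1 averaged 5.73 in knockdown and 5.89 in control clones, near the highest of the leukocyte markers. CDH1 read 7.33 in knockdown clone 1 against 4.44 to 5.19 in the other clones. Array medians ran from 5.12 to 5.17. The 3′ minus 5′ index of the GAPDH and ACTB control probe sets, which rises as RNA is degraded or copied incompletely, was 1.62 to 2.11 in knockdown clones and 1.13 to 1.47 in control clones (exact permutation p = 0.1, two-sided). RMA signals are log2 values set to 1 common distribution by the authors, so a shift common to most genes cannot show, and levels of different probe sets are only roughly comparable.

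On the probe sets of IRX5, IRX3 and FTO all knockdown clones lay above all control clones, while no such rise was seen on the probe sets of IRX1, IRX2 and IRX4. All knockdown clones lie above all control clones on 9.85% of all probe sets. IRX5 was 3.18-fold higher in knockdown clones, IRX3 1.99-fold and FTO 1.48-fold. With all clones the IRX3 difference passed the test over all probe sets and that of FTO did not. The IRX3 call was lost in 6 of 11 alternative fits. In bulk RNA of a clone, more transcript per cell and more cells with the transcript cannot be told apart. IRX3 and IRX5 are the members of the chromosome 16 cluster that pattern heart, limb and brain together.

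IRX5 was read by probe set 210239_at. Its log2 signals were 7.93, 7.63 and 7.97 in knockdown clones 1, 2 and 3, against 6.20, 6.23 and 6.09 in control clones 1, 2 and 3. The knockdown clones stood 1.46 to 1.80 above the control mean and the groups were far apart, with clone 2 the lowest of the knockdown clones. The means were 7.85 ± 0.19 in knockdown and 6.18 ± 0.07 in control clones (SD, n = 3 each). The limma change, knockdown minus control as for all changes here, was 1.67 (SE 0.11). Because IRX5 was picked for this change, no test or interval of it is given, and the value may be overstated. Leaving out any single clone kept its change between 1.61 and 1.78, and it was 1.53 (SE 0.20) once the 3′ minus 5′ index was added to the fit as a term. Its control level lay a little above the highest of the leukocyte markers, which MDA-MB-231 cells should lack, but below the fat cell marker CIDEC, at 6.80 in control clones. The control level of IRX5 is thus not shown to be above background.

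IRX3, which acts beside IRX5 in heart and limb development, was read by probe set 229638_at. Its log2 signals were 9.09, 9.37 and 9.14 in knockdown clones 1, 2 and 3, against 8.14, 8.28 and 8.19 in the control clones. Again the groups did not overlap, but here clone 2 was the highest of the knockdown clones. The means were 9.20 ± 0.15 in knockdown and 8.21 ± 0.07 in control clones (SD, n = 3 each), and IRX3 rose by 0.99 on the log2 scale (SE 0.10, 95% interval 0.75 to 1.24, limma adjusted p = 0.0302 over 54613 probe sets). The exact two-sided permutation test gave p = 0.1, the smallest that 3 clones against 3 allow. The size of the IRX3 change stayed between 0.91 and 1.07 in every alternative run, but its call did not: the adjusted p was 0.0629 without knockdown clone 2, 0.258, 0.225 and 0.238 without control clones 1, 2 and 3, and 0.184 with the index as a term (change 1.07, SE 0.18). Without knockdown clone 1 or 3 the adjusted p of IRX3 was 0.0161 and 0.00932. The whole table held 305 calls with all clones, 3 to 5 without a control clone, and 1465, 33 and 2493 without knockdown clone 1, 2 or 3. With the index as a term it held 1.

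FTO was read by probe set 209702_at. Its log2 signals were 9.17, 9.26 and 9.68 in knockdown clones 1, 2 and 3, against 8.72, 8.85 and 8.84 in the control clones. Knockdown clone 3 stood apart, at 1.84-fold the control mean, with clones 1 and 2 at 1.29-fold and 1.37-fold. The means were 9.37 ± 0.28 in knockdown and 8.80 ± 0.08 in control clones (SD, n = 3 each), a difference of 0.57 (SE 0.14, 95% interval 0.23 to 0.90) that did not pass (limma adjusted p = 0.139, exact permutation p = 0.1). Without knockdown clone 3 the FTO difference was 0.41 (adjusted p = 0.0578).

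Of the 6 member probe sets beside that of IRX5, 1 was called higher, that of IRX3, and 0 lower (limma, adjusted p under 0.05), where 0.251% of all probe sets were called higher and 0.308% lower. As the members were gathered around a gene chosen from this contrast, the count is a description. Larger increases than those of IRX5, IRX3 and FTO were seen on 0.0110%, 0.179% and 1.93% of all probe sets.

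**Figure D1:**
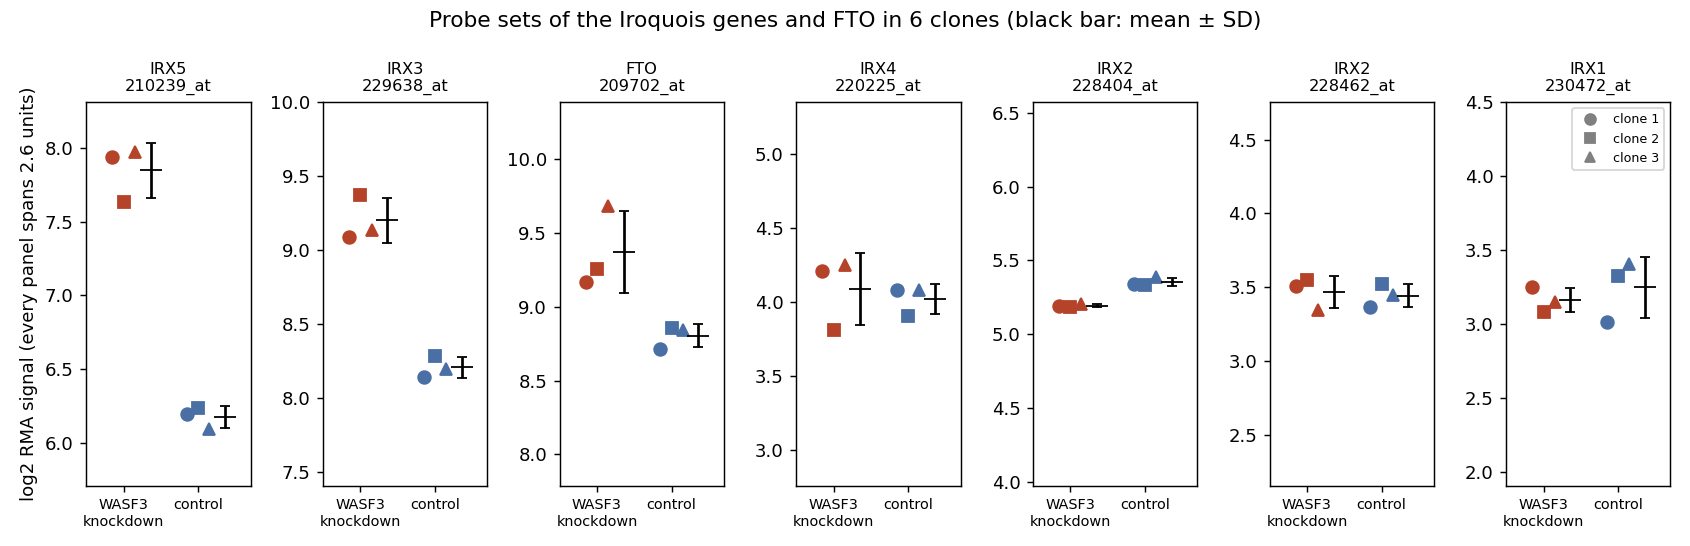
Log2 RMA signal of each member probe set (vertical axis, 2.6 units in every panel) in 3 WASF3 knockdown clones (red, left) and 3 control clones (blue, right), with symbols for clones 1, 2 and 3 and black bars for mean ± SD. The red and blue points of IRX5, IRX3 and FTO are separate, with knockdown higher, those of IRX2 on 228404_at are separate by a narrow gap with knockdown lower, and the rest overlap.

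**Figure D2:**
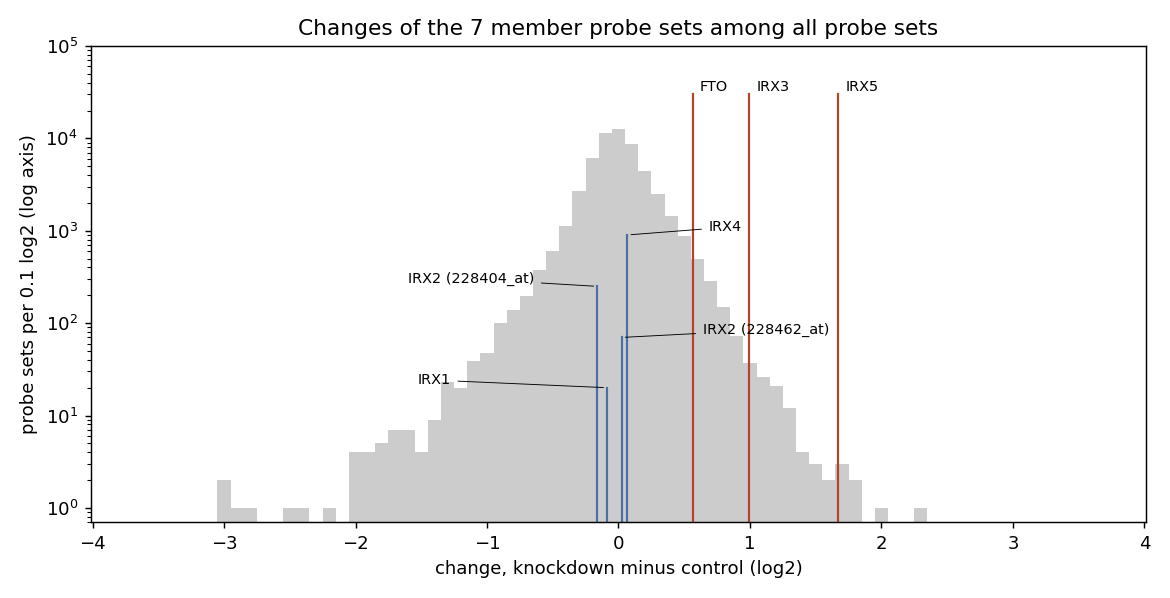
Number of probe sets in each 0.1-wide bin of change (bars, log vertical axis) against the change, knockdown minus control, in log2 units, over 54613 probe sets, with lines at the 7 member probe sets. IRX5 at 1.67, IRX3 at 0.99 and FTO at 0.57 lie in the right tail, and the 4 probe sets of IRX1, IRX2 and IRX4 lie between −0.16 and 0.07 in the body of the distribution.

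The genes of the chromosome 5 cluster gave low signals with small differences. IRX4, a factor of the heart ventricle, read 4.21, 3.81 and 4.25 in knockdown clones, against 4.08, 3.90 and 4.08 in control clones (change 0.07, 95% interval −0.25 to 0.39, limma adjusted p = 0.875). IRX1 read 3.25, 3.08 and 3.15 in knockdown clones, against 3.01, 3.33 and 3.40 in control clones (change −0.09, 95% interval −0.37 to 0.20, adjusted p = 0.813). Both groups overlap for these genes, and the upper ends of the intervals lie below the IRX3 change of 0.99. IRX2 had 2 probe sets. On 228404_at it read 5.19, 5.19 and 5.20 in knockdown clones, against 5.34, 5.34 and 5.39 in control clones. All knockdown values of that probe set were lower, as on 11.1% of all probe sets, but the difference was small and did not pass (change −0.16, SE 0.08, adjusted p = 0.424). On 228462_at IRX2 read 3.51, 3.55 and 3.34 in knockdown clones, against 3.36, 3.52 and 3.45 in control clones (change 0.02, 95% interval −0.20 to 0.25, adjusted p = 0.943). All 4 probe sets lie within or just below the range of the leukocyte markers, so none of these genes is shown to be above background and a change at such levels could be understated.

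Neighbours in the RefSeq gene order (assembly GRCh38.p14) were taken as the genes between members and the nearest 10 measured genes on either side, each read by the probe set with the highest mean. Around FTO, IRX3 and IRX5 there were 22 such genes, of which 0 were called higher and 0 lower in limma, beside 0.319% of all genes called higher and 0.420% called lower. Without adjustment, 4 of the 22 had a p under 0.05 with knockdown higher and 1 with knockdown lower, beside 9.11% and 7.67% of all genes. The groups were apart with knockdown higher in 6 of the 22, against 12.1% of all genes, and with knockdown lower in 3, against 12.6%. Their median change was 0.01, beside −0.01 over all 19775 genes. Of the 10 genes before FTO, 5 had all knockdown clones above all control clones, and of the 10 after IRX5, none had.

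Between IRX3 and IRX5 lie the noncoding genes LINC02140 and CRNDE. CRNDE, a long noncoding transcript that starts next to IRX5 on the other strand and is raised in several tumour types, read 10.1, 9.80 and 10.8 in knockdown clones 1, 2 and 3, against 9.63, 9.75 and 9.56 in control clones. The groups were apart on this probe set by a narrow margin between knockdown clone 2 and control clone 2, and knockdown clone 3 was the highest. The CRNDE difference of 0.58 (SE 0.23) did not pass (limma adjusted p = 0.319). On the other probe set of CRNDE the groups overlapped and the difference was 0.46 (SE 0.23, adjusted p = 0.426). Without knockdown clone 3 the first CRNDE difference was 0.30. LINC02140 read 3.34, 3.49 and 3.21 in knockdown clones, against 3.69, 3.71 and 3.53 in control clones (change −0.30, SE 0.11, adjusted p = 0.265), at levels not shown to be above background.

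RBL2, which encodes the retinoblastoma-related pocket protein p130, had the largest difference among the neighbours on chromosome 16. It read 7.87, 7.96 and 8.98 in knockdown clones 1, 2 and 3, against 7.26, 7.36 and 7.47 in control clones. The groups were apart and clone 3 was again far above the rest, so that the difference of 0.90 had a wide error (SE 0.28, limma adjusted p = 0.206). Without knockdown clone 3 the RBL2 difference was 0.55 and passed (SE 0.10, adjusted p = 0.0299), in a fit that called 2493 probe sets in the whole table, against 305 with all clones. On its dimmer probe set RBL2 differed by 0.46 (SE 0.22, adjusted p = 0.399) with overlapping groups.

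RPGRIP1L and AKTIP, which lie between RBL2 and FTO, are given because of that position, after their values were seen. RPGRIP1L, a protein of the ciliary transition zone, read 4.86, 5.15 and 5.20 in knockdown clones, against 4.26, 4.67 and 4.41 in control clones (change 0.62, SE 0.14, adjusted p = 0.107). Those groups were apart, and without knockdown clone 1 RPGRIP1L passed at 0.73 (adjusted p = 0.0488) in a fit with 1465 calls in the whole table. On its dimmer probe set RPGRIP1L differed by 0.17 (SE 0.11, limma adjusted p = 0.574) with overlapping groups. Its levels are near those of the leukocyte markers. AKTIP, a partner of the kinase AKT, read 7.64, 7.81 and 8.48 in knockdown clones, against 7.62, 7.50 and 7.58 in control clones (change 0.41, SE 0.20, adjusted p = 0.433). The AKTIP difference was 0.16 without knockdown clone 3 and 0.82 with the RNA index in the fit. Its second probe set overlapped between the groups, at 0.22 (SE 0.29). In gene order, RBL2, AKTIP, RPGRIP1L, FTO, IRX3, CRNDE and IRX5 thus had higher means in knockdown clones, with LINC02140 lower. With IRX5 left untested because it was chosen for its change, IRX3 was the one that passed with all clones. Clone 3 was the highest knockdown clone for all of these higher genes but IRX3. CHD9, directly before RBL2, is given for that position, after its values were seen. On its brightest probe set all its knockdown clones also lay above all control clones (change 0.18, SE 0.09, limma adjusted p = 0.448). A dim one of its 7 probe sets went lower (change −0.19).

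CES1, a carboxylesterase further along the chromosome, was high in knockdown clone 3 alone. It read 4.27, 4.13 and 6.72 in knockdown clones 1, 2 and 3, against 4.27, 4.21 and 4.06 in control clones (change 0.85, SE 0.62, adjusted p = 0.607). MMP2, the gelatinase gene next after IRX5 among the measured genes, read 5.06, 4.94 and 5.06 in knockdown clones, against 5.16, 5.15 and 5.08 in control clones (change −0.11, adjusted p = 0.622). On this probe set all knockdown values lay below all control values, by a gap narrower than the spread of either group. On its other probe sets MMP2 differed by 0.13 and −0.27, with overlapping groups. All these levels are not shown to be above background. MMP2 was named for its position, after its value was seen.

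Around IRX4, IRX2 and IRX1 there were 23 neighbours on chromosome 5, of which 0 were called in either direction by limma. At an unadjusted p under 0.05, 2 were higher and 1 was lower, shares no greater than the 9.11% and 7.67% of all genes, and the median change was −0.01. The groups were apart with knockdown higher in 4 of the 23, against 12.1% of all genes, and with knockdown lower in 2, against 12.6%. The largest differences were those of TERT, the telomerase reverse transcriptase, and LPCAT1, a phospholipid acyltransferase. TERT read 6.72, 5.89 and 5.94 in knockdown clones, against 5.50, 5.86 and 5.34 in control clones (change 0.62, SE 0.24, adjusted p = 0.306), and its other probe set gave −0.01. Knockdown clone 1 was by far the highest for TERT, with clones 2 and 3 only just above control clone 2. The control levels of TERT were near the highest of the leukocyte markers. LPCAT1 read 10.7, 10.9 and 9.21 in knockdown clones, against 10.6, 10.6 and 10.7 in control clones (change −0.40, SE 0.39, adjusted p = 0.714), so that its difference rests on knockdown clone 3. The noncoding genes inside this cluster, CTD-2194D22.4, LOC100506858 and LINC01019, changed by 0.03, 0.05 and 0.10, none past the threshold (adjusted p = 0.948, 0.866 and 0.644 in limma).

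**Figure D3:**
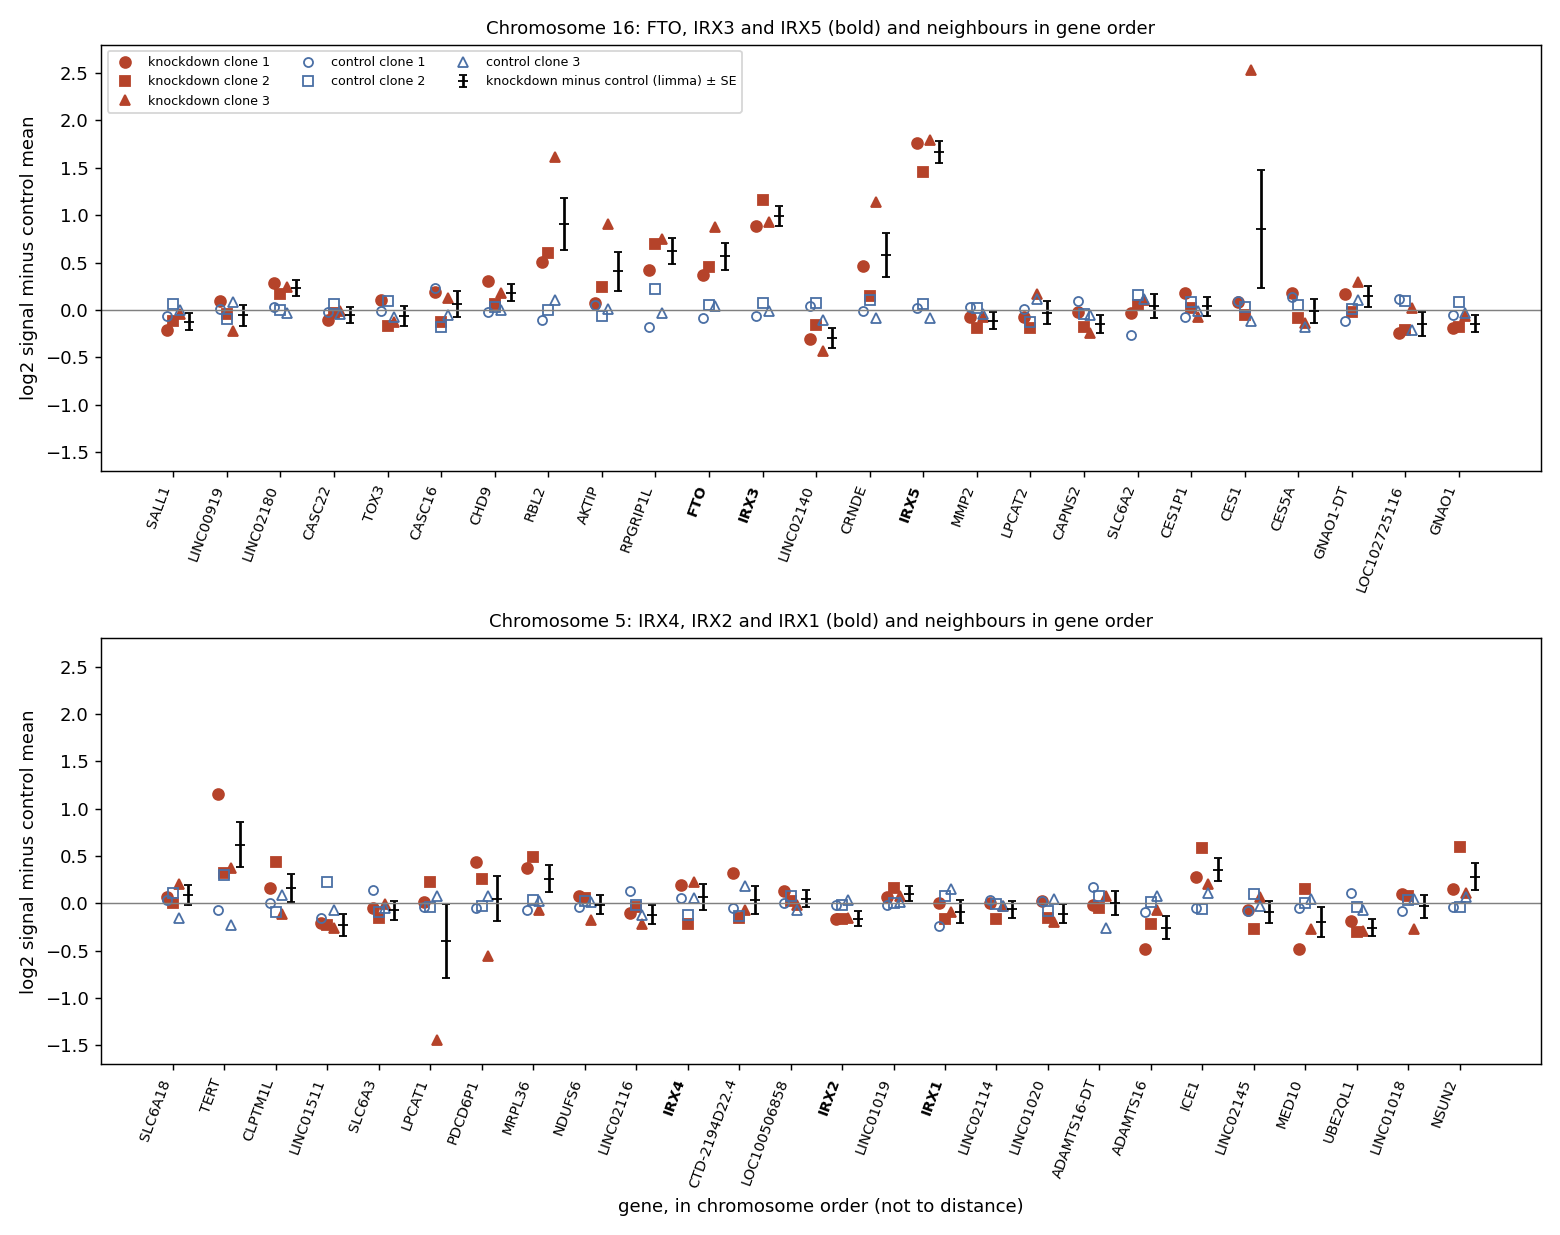
Signal of each clone minus the control mean (log2, vertical axis) for the members (bold) and their neighbours, in gene order along chromosome 16 (top) and chromosome 5 (bottom), with knockdown clones filled red, control clones open blue, and the limma change ± SE in black. On chromosome 16 the red points lie above 0 at CHD9 through FTO, at IRX3 and at CRNDE and IRX5. Clone 3 is high at RBL2, AKTIP, FTO, CRNDE and CES1. On chromosome 5 no such run is seen.

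The start sites at these loci are shown because neighbouring genes there had differences of the same sign. The windows reach from 250 bases before to 50 bases after a start, from RefSeq on GRCh38.p14, 5′ to 3′ on the strand of the gene, with CpG dinucleotides in capitals. FTO and RPGRIP1L start head to head, 297 bases apart for the transcripts listed, so that their windows share 204 bases. CRNDE starts on the opposite strand from IRX5, and IRX2 is given as a start in the other cluster, where signals were low. Windows of IRX3, IRX5 and IRX6 were not used here.
FTO, chr16:53703906-53704205, plus strand: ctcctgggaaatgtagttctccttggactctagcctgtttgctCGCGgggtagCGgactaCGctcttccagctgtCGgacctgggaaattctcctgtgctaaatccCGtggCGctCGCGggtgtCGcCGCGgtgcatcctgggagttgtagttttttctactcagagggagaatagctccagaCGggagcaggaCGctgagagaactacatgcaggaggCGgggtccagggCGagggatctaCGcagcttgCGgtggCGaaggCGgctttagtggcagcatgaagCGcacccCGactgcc
CRNDE, chr16:54928837-54929136, minus strand: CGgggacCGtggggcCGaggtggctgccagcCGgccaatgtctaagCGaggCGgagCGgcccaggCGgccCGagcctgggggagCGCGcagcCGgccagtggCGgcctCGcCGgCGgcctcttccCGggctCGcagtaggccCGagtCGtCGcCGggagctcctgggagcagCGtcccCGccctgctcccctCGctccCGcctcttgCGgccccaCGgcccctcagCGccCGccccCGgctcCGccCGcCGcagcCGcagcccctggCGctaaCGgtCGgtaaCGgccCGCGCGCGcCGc
IRX2, chr5:2751628-2751927, minus strand: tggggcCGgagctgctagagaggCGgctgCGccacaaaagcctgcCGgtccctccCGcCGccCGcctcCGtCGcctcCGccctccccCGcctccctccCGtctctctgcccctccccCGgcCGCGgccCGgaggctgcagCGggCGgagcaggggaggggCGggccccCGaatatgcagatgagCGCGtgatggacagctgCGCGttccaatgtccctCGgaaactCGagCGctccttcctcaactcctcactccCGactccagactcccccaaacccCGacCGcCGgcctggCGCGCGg
The window of FTO holds 22 CpG, that of CRNDE 44 and that of IRX2 34, against a median of 14 over 35116 RefSeq start windows of this length. The CRNDE window has more CpG than 95.8% of them and is 80.0% G or C. The IRX1 window holds 38 and the 3 windows of IRX4 hold 36, 44 and 47. CpG-rich starts were thus found in the cluster with low signals as well as beside IRX5. The letters ACANNTGT, a palindrome bound by Iroquois proteins in Drosophila, were searched on both strands; they are in none of the windows of FTO, RPGRIP1L, CRNDE, IRX1, IRX2 and IRX4, and in 5.62% of all windows. The window of IRX2-DT, a noncoding gene that starts 216 bases from IRX2, shares 285 bases with that of IRX2.

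The other genes of the TALE class gave smaller differences, mostly of the opposite sign to IRX3 and IRX5. Of 11 measured MEIS, PBX, PKNOX, TGIF and MKX genes, cofactors of HOX proteins or repressors, 0 were called in limma, 10 had a lower mean in knockdown clones and the median change was −0.12. A higher mean was seen in 1 of the 11, against 47.6% of all genes. At an unadjusted p under 0.05, 0 were higher and 2 lower, against 9.11% and 7.67% of all genes. The groups were apart with knockdown lower in 5 of the 11, against 12.6% of all genes, and with knockdown higher in 0, against 12.1%. The 2 with an unadjusted p under 0.05 were PBX4 and PKNOX1, both partners in HOX complexes. PBX4 read 7.07, 7.14 and 6.93 in knockdown clones, against 7.34, 7.31 and 7.44 in control clones (change −0.32, SE 0.09, adjusted p = 0.198). PKNOX1 differed by −0.21 (SE 0.09, adjusted p = 0.341), also with no overlap between the groups. MKX, the tendon factor Mohawk, was the member with a higher mean (change 0.49, adjusted p = 0.370). It read 4.44, 3.86 and 3.61 in knockdown clones, against 3.26, 3.48 and 3.69 in control clones. These groups overlapped, at levels not shown to be above background. MEIS1 and PKNOX2, counted among the lower means, also lay in the range of the leukocyte markers.

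FTO belongs to the proteins that write, erase and read methyladenosine in RNA. Of 16 other measured genes of this machinery, 0 were called in limma, 12 had a higher mean in knockdown clones, against 47.6% of all genes, and the median change was 0.11. At an unadjusted p under 0.05, 2 of the 16 were higher and 0 lower, against 9.11% and 7.67% of all genes. METTL3, the catalytic subunit of the methyltransferase, read 10.3, 10.2 and 9.83 in knockdown clones, against 9.62, 9.71 and 9.72 in control clones (change 0.42, SE 0.13, adjusted p = 0.220). ALKBH5, the other known demethylase of this mark, read 10.2, 10.1 and 10.2 in knockdown clones, against 9.86, 9.90 and 9.92 in control clones (change 0.25, SE 0.08, adjusted p = 0.230). For both genes all knockdown clones lay above all control clones, as for 4 of the 16 in all and for 12.1% of all genes.

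Of 7 genes reported as regulators, partners or targets of IRX3 or IRX5, 0 were called in limma and the median change was −0.06. At an unadjusted p under 0.05, 1 of the 7 was higher and 1 lower, where 9.11% and 7.67% of all genes were. ARID5B, a repressor that binds the obesity-associated enhancer in FTO, read 7.27, 7.68 and 8.08 in knockdown clones 1, 2 and 3, against 7.14, 7.12 and 7.19 in control clones (change 0.53, SE 0.19, adjusted p = 0.272). Its knockdown clones spread widely but did not overlap the control clones. CXCL12, a chemokine gene repressed by Irx5 in frog embryos, read 3.67, 3.70 and 4.05 in knockdown clones, against 4.10, 4.10 and 4.14 in control clones (change −0.31, SE 0.12, adjusted p = 0.307), at levels not shown to be above background.

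**Figure D4:**
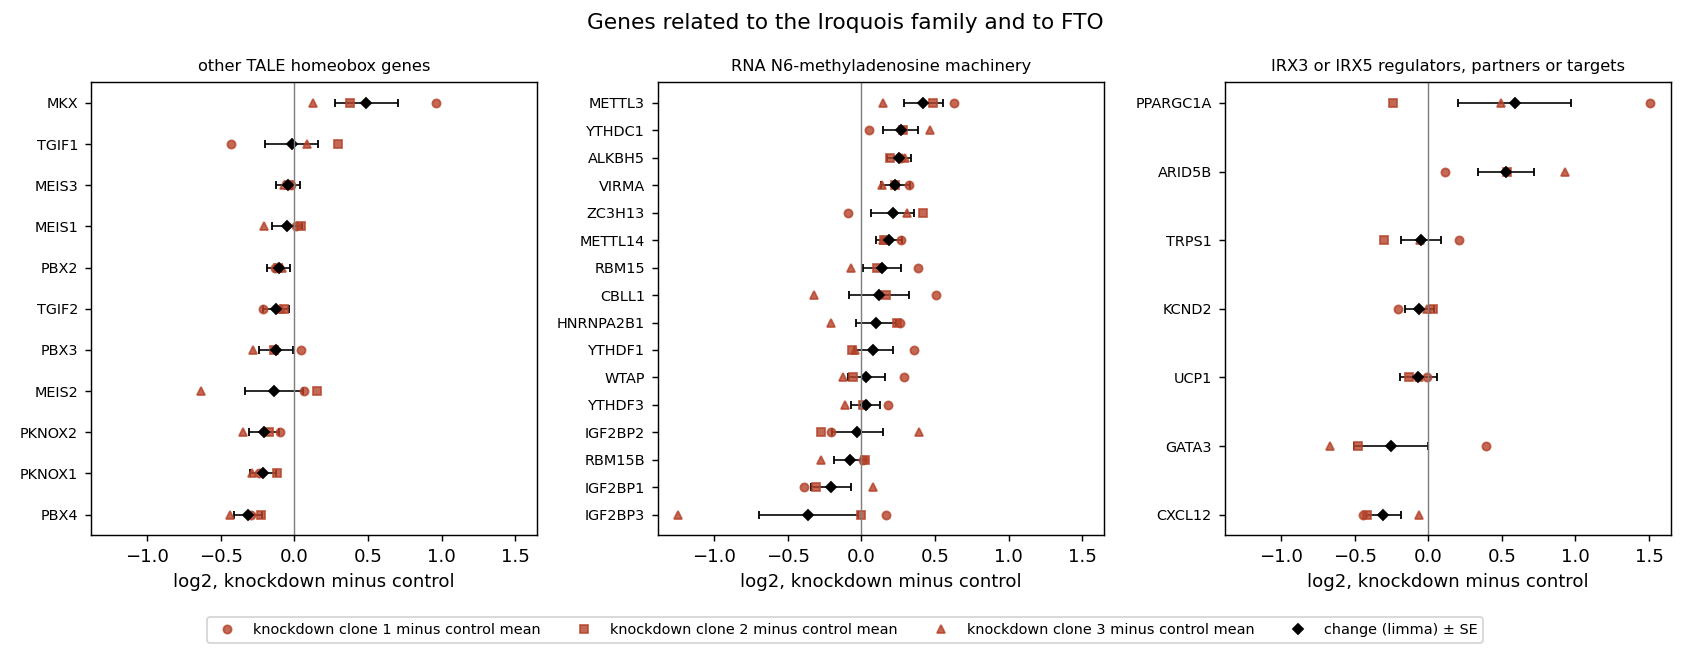
Change of each gene (log2, knockdown minus control, horizontal axis) in the lists of other TALE homeobox genes, RNA methyladenosine machinery and genes linked to IRX3 or IRX5, with black diamonds for the limma change ± SE and red symbols for each knockdown clone minus the control mean. Most TALE genes lie left of 0 and most genes of the methyladenosine machinery right of 0, and no gene shown passed the threshold.

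Among 124 genes with a mean above 5 and a change of at least 1 on the log2 scale in either direction, the 5 most like IRX5 over the 6 arrays were GPR137C (Pearson r = 0.98), PLEKHA7 (0.98), AHRR (0.98), AIF1L (0.97) and KDM1B (0.94). These correlations describe 2 groups that are apart, so they follow mainly from the shared difference between knockdown and control. None of the 5 lies on chromosome 16. PLEKHA7, a protein of the adherens junction, read 9.36, 9.24 and 9.12 in knockdown clones, against 7.78, 7.60 and 7.75 in control clones. AHRR, the repressor of the aryl hydrocarbon receptor, read 8.47, 7.95 and 8.15 in knockdown clones, against 7.13, 7.24 and 7.09 in control clones. As for IRX5, clone 2 was the lowest knockdown clone for AHRR, GPR137C, AIF1L and KDM1B, but not for PLEKHA7. Over the same arrays IRX3 had r = 0.95 with IRX5, FTO 0.88 and CRNDE 0.77.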

How the data were processed

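Expression was measured on Affymetrix oligonucleotide arrays, 1 for each of 3 WASF3 knockdown and 3 control clones. The submitters' processing notes name RMA and Affymetrix Expression Console 1.0 as the tools by which the authors made the deposited log2 values; genome build and annotation are not given in the sources used here. Scanner files were not used, so no detection calls were computed, and the number of arrays limits the precision.

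Gene names came from the platform annotation and were updated by gene identifier to RefSeq symbols (41037 of 41091 with 1 symbol matched; 1801 with several and 11721 with none were not named). All 54613 non-control probe sets were fitted with limma 3.58.1 in R 4.3.3 (group only, two-sided, Benjamini-Hochberg), and called at an adjusted p under 0.05. The script was tested on simulated data. An exact permutation test over the clones was added for single members.

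Members and lists were chosen with earlier results of these data known. Named genes were all members; neighbours between members or with the 2 largest changes in each cluster; in each list, called genes or else the 2 smallest p; and the 5 genes most correlated with IRX5. Alternatives were the replicate number as a block, each clone left out, an intensity trend, a filter at a mean of 5, median centring, the RNA index (3′ minus 5′) as a covariate, 5 neighbours on either side, other probe set rules and the mean of all probe sets of a gene.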

Additional observations from a re-analysis of the deposited data

How the results depend on the processing

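The IRX5 change kept its direction in all 12 alternatives, between 1.53 and 1.78, as did those of IRX3 (0.91 to 1.07) and FTO (0.41 to 0.73) in all 11. By construction, the replicate block, the intensity trend and the filter at a mean of 5 cannot move these changes. Taking the mean of all probe sets cannot move that of IRX5, which has 1 probe set. Calls of IRX5 are not counted here, since it was chosen from this contrast. Among the other member probe sets, that of IRX3 was called higher with all clones. It was called neither with the replicate block nor with the RNA index (3′ minus 5′) as a covariate. Nor was it called without knockdown clone 2 or without control clone 1, 2 or 3. In these 6 fits the limma adjusted p of IRX3 ran from 0.0629 to 0.258. The fit with the index left 1 call in the whole table. With the block the limma adjusted p of IRX3 was 0.135, and the block left 6 calls in the whole table against 305 without it. Clones of the same number did not deviate together (correlations of −0.07, −0.10 and −0.04 between their deviations from the group means). Between clones of different number the correlations were −0.01 to 0.07, so those of the same number were the lowest. These values give no sign that clones of the same number moved together. They cannot exclude pairing, and the titles give only a replicate number. Neighbour genes called higher, 0 with all clones, were 0 to 2 when a clone was left out (RPGRIP1L without knockdown clone 1; RBL2 and MRPL36, a mitochondrial ribosomal protein gene, without clone 3, in fits with 1465 and 2493 calls in the whole table), and none was called lower in the 13 alternatives. Small differences turned sign: IRX4 gave −0.016 with the index and −0.012 (without knockdown clone 3) to 0.208 (without knockdown clone 2) when a clone was left out. IRX2 on 228462_at gave −0.083 with the index and −0.016 (without knockdown clone 2 or control clone 1) to 0.086 (without knockdown clone 3). IRX1 kept its sign but moved to −0.31 with the index, −0.20 without control clone 1 and −0.0085 without control clone 3. The cause was not tested, and the part of RNA quality in the differences was not tested beyond the covariate fit. In a filter at a mean above 5, IRX1, IRX4 and 228462_at were not fitted.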
